A study of Mus musculus with 12 samples.

Results

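C18-4 is a mouse cell line derived from spermatogonial stem cells, the cells that both renew themselves and give rise to sperm. The comparison described here is between KD, C18-4 cells that carried the LV3 vector with shRNAs against lncRNA5251, and 3NC, C18-4 cells that carried LV3 with a control shRNA. All 6 libraries of these groups, 3 per group, were taken from the 12 libraries of the series, and 11252 of the 17576 genes in the deposited table were compared. These were the genes with a level of at least 1 RPKM (reads scaled by gene length and by the size of the library) in at least 3 of the 6 libraries, and 6324 genes were left out. The labels give IRC mouse as the strain of all groups. The sources differ on what KD cells received: the methods of the main text have 3 shRNAs mixed, a fuller version of the methods has 2 and names lncRNA8276 in its heading for C18-4 cells, and the labels name lncRNA5251, which was followed here. Stably transfected cells were cultured. The 3 libraries of 5NC, C18-4 cells with the empty LV5 vector, were set beside the comparison as another control that differs from KD in its vector too. Nothing in the labels says that the libraries of a group came from separate cultures, so the p-values measure only the spread between these libraries, which may be technical.

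Knockdown by shRNA works through a short hairpin that the cell trims to a guide, and the guide leads the silencing complex to RNAs with a matching sequence. The 3 knockdown sequences and the control sequence are shown because they define the groups. Each knockdown sequence was identical over its 21 bases, in the sense direction, to 1 of 141767 GENCODE transcripts on build GRCm38, and this was Purb, which encodes a single-stranded nucleic acid binding protein of the Pur family. Capitals mark the bases identical to Purb.
Knockdown shRNA 1: GCTGGGACTTAATGTCCTTCT
Knockdown shRNA 2: GCATGGGCAATTCAAACAAAT
Knockdown shRNA 3: GCTTATTATGCATCGTAAACC
Control shRNA: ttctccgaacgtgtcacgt
The matches lie in the 3′ UTR of the single-exon Purb gene on the minus strand, at chr11:6468416-6468436, chr11:6467969-6467989 and chr11:6468248-6468268 for shRNA 1, 2 and 3. The control sequence of 19 bases had 0 exact matches. Purb measured 32.9, 34.1 and 33.8 RPKM in 3NC and 8.93, 8.79 and 10.2 in KD. The KD and 3NC ranges did not overlap, and Purb was also at 29.2, 32.1 and 30.7 in 5NC. The log2 difference between KD and 3NC was -1.75 (SE 0.10, limma adjusted p = 1.23e-09). Pura, the closest relative of Purb, did not pass the test, with a log2 difference of -0.04 (SE 0.06, limma adjusted p = 0.591). Purg was higher by 0.35 (SE 0.10, limma adjusted p = 0.00629). The sequence of shRNA 3 was also found in the study's alignment of lncRNA5251, of which only an incomplete reading from page images was at hand, so lncRNA5251 and the Purb 3′ UTR have at least that stretch in common. How far they overlap was not determined, and Purb reads and lncRNA5251 reads may not be separable in these values. The level of lncRNA5251 itself was not analysed here.

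The label C18-4 was checked against markers of testis cells. Germ cell markers were mostly absent: 22 of 29 were under 1 RPKM in all 6 libraries, and Ret, Nanos2, Lin28a, Pou5f1, Kit, Stra8 and Dmrt1 were at 0. Ddx4, the germ cell helicase that defines the lineage, reached at most 0.03 RPKM, Dazl 0.02 and Gfra1, the GDNF co-receptor of spermatogonial stem cells, 0.15. Uchl1 and Cd9, which spermatogonia share with other cells, were at 77.1 and 102 RPKM in 3NC. Of the Sertoli cell markers Sox9 and Cldn11 were at 0, while Wt1 was at 50.3 RPKM in 3NC and 50.4 in KD. Vim, the mesenchymal intermediate filament, was at 536 RPKM in 3NC and 541 in KD. The summed level of the germ cell list was 196 to 199 RPKM in 3NC and 200 to 203 in KD, and that of the Sertoli list 67.2 to 69.5 and 69.7 to 71.4. The myoid list summed to between 77.5 and 82 RPKM in 3NC and between 102 and 108 in KD. The mesenchymal list summed to between 1210 and 1250 RPKM in 3NC and between 1440 and 1500 in KD, where Col1a1 (256 and 367 RPKM) and S100a4 (294 and 423 RPKM) were its most abundant genes after Vim. Of its 14 tested genes 5 were higher and 5 lower (median -0.02), and the lower ones included the cadherin gene Cdh2 (51.7 and 32.2 RPKM) and the transcription factor genes Snai1 (7.06 and 4.03) and Zeb2 (7.6 and 4.2). The Leydig list reached at most 2.43 RPKM. The macrophage and endothelial list summed to 6.03 to 7.23 RPKM in 3NC and 3.94 to 4.66 in KD. Its 1 tested gene, Cd68, a lysosomal protein of macrophages, fell from 5.05 to 2.69 RPKM (log2 difference -0.70), while Ptprc, Csf1r, Itgam and Cdh5 were under 0.1 RPKM in every library. In bulk RNA, fewer cells of a kind and less RNA per cell cannot be told apart, and the part of these shifts in the results below was not tested.

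In KD, genes of ribosome biogenesis, chemokines, heat shock, iron handling and glutathione metabolism were mostly lower than in 3NC, and genes of respiration, MHC class I presentation, lysosomes and integrins were mostly higher. Of 50 ribosome biogenesis genes 47 were lower at a limma adjusted p up to 0.05, with a median log2 difference of -0.71, and of 24 genes of MHC class I presentation 18 were higher, with a median of 0.37. Over all genes tested, 23.7% were lower and 32.3% higher at that threshold. The largest fall was that of the AP-1 gene Fosl1, from 31 to 0.983 RPKM (3 libraries each). Among the rises, Ly6f went from 5.06 to 29.4 RPKM and Gas6 from 29.7 to 97.8. The other control, 5NC, stood near KD for some of these: Fosl1 was at 1.72 RPKM and Gas6 at 79.5 in 5NC, and against 5NC the medians of the glutathione list (0.14) and of the lysosome list (-0.11) had the opposite sign.

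Differences were taken between values of log2(RPKM + 1), so that those of weakly expressed genes come out too small. Genes were called at a limma adjusted p (Benjamini-Hochberg) of at most 0.001 and a log2 difference of at least 1. By this rule 57 genes (0.507% of those tested) were higher and 123 (1.09%) lower in KD. With a pseudocount of 0.1 in place of 1 the counts were 161 and 189, and 179 of the 180 genes called with a pseudocount of 1 were still among them. At an adjusted p of at most 0.05 with no limit on size, 3632 genes (32.3%) were higher and 2662 (23.7%) lower. The KD and 3NC ranges did not overlap for 63.3% of all genes tested and for each of the 180 genes called. Most differences were small: the median log2 difference was 0.04, and the percentiles 5 and 95 were -0.57 and 0.58. Genes called lower had a median level of 29.9 RPKM in 3NC and genes called higher 4.83, beside 14.1 for all genes tested. Through the filter, 102 genes passed with at least 1 RPKM in every KD library and in no 3NC library, and 11 of them were called. The reverse held for 45 genes, of which 8 were called.

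**Figure D1:**
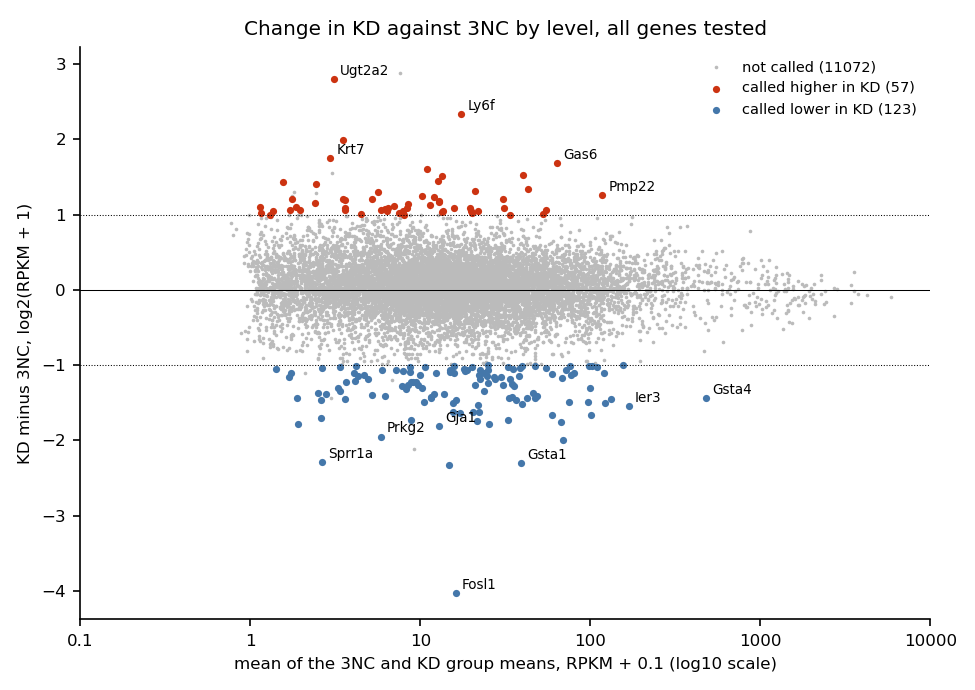
Each point is 1 of the 11252 genes tested, with the mean level in RPKM on a log10 axis and the difference between KD and 3NC in log2(RPKM + 1). Red points are the 57 genes called higher and blue points the 123 called lower, dotted lines mark a log2 difference of 1, and Fosl1 lies lowest.

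Cells make ribosomes in the nucleolus, where RNA polymerase I transcribes the ribosomal RNA and a large set of processing factors cuts, modifies and folds it around the ribosomal proteins. Genes of this ribosome biogenesis machinery were lower in KD. Of 50 listed genes, all tested, 47 were lower at an adjusted p up to 0.05 and 1, Nop10, was higher. Of them, 10 passed the call and all 10 were lower. The median log2 difference of the list was -0.71, beside 0.04 for all genes. In single libraries the list median, relative to the 3NC mean, was -0.76, -0.72 and -0.70 in KD and -0.01 to 0.01 in 3NC.

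In 3NC, Mybbp1a was at 143, 145 and 143 RPKM, and in KD it was at 52.1, 53.1 and 46.2. Mybbp1a encodes a nucleolar Myb-binding protein, and its log2 difference was -1.49 (SE 0.05, limma adjusted p = 1.01e-11). Nop2 stood at 63.1, 60.8 and 63 RPKM in 3NC, and the KD libraries gave 22.4, 24.3 and 20.4. Nop2 methylates the large-subunit ribosomal RNA. Its log2 difference was -1.44 (SE 0.06), that of Rrp12, a factor in ribosomal RNA maturation, -1.49 (SE 0.07), and that of Dkc1, the pseudouridine synthase of the H/ACA particles, -1.35 (SE 0.05). The other 6 members called, named here after their values were seen, were Nhp2 at -1.17, Utp20 at -1.09, Rrs1 at -1.05, Tsr1 at -1.05, the helicase gene Ddx21 at -1.04 and the RNA polymerase I subunit gene Polr1b at -1.02. The KD libraries of all these genes lay below their 3NC libraries. The smallest falls among members that passed an adjusted p of 0.05 were those of Npm1 (-0.27) and Rrn3 (-0.25), both outside the call.

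The structural proteins of the ribosome moved little between 3NC and KD. Of 78 genes of cytosolic ribosomal proteins, 20 were lower and 8 higher at an adjusted p up to 0.05, with a median of -0.02 and no gene called. Rplp0, a protein of the ribosomal stalk, fell by 0.43 and Rpl29 fell by 0.89 on the log2 scale. Of 43 translation factors 19 were lower and 5 higher (median -0.10), and 1 was called, Eif4g2, an initiation factor of the eIF4G family. The level of Eif4g2 was 149.9, 149 and 144 RPKM in 3NC, and 69.8, 69 and 76 in KD. Its log2 difference was -1.03 (SE 0.06).

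Synthesis of nucleotides and one-carbon units, which feeds RNA and DNA synthesis, was lower in part. Of 31 genes 19 were lower, 3 higher and 9 neither, with a median of -0.18 and none called. Gart, a purine synthesis enzyme, fell from 34.3 to 18 RPKM (log2 difference -0.89, SE 0.05), and Shmt1, which makes glycine and one-carbon units from serine, from 25.9 to 14 RPKM (-0.85, SE 0.06). DNA replication genes (47 tested, 14 higher, 13 lower, median 0.00) and mitosis genes (40 tested, 14 higher, 9 lower, median 0.06) had shares near those of all genes tested (32.3% higher, 23.7% lower). Among them Lig1, the ligase that joins Okazaki fragments, was higher by 0.54 and Ccnb2, a mitotic cyclin, by 0.54, while Plk1, a mitotic kinase, was lower (-0.38). Xpo5, which exports microRNA precursors, was lower (-0.9) and the Argonaute gene Ago4 higher (0.55) in a list of 13 RNA silencing genes with 3 lower, 2 higher and a median of 0.01.

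Myc encodes a transcription factor that raises many genes of ribosome and nucleotide synthesis in growing cells. Myc was at 22.3, 23.9 and 23.9 RPKM in the 3NC libraries and at 8.06, 7.5 and 7.33 in the KD libraries. The 3 KD libraries were all below the 3NC libraries, with a log2 difference of -1.5 (SE 0.06, limma adjusted p = 3.24e-11). Among 11 tested genes of the MYC network, 5 were lower and 3 higher at an adjusted p up to 0.05 (median -0.17), and Myc was the 1 gene called. MYC and its partner MAX bind the E-box CACGTG. Promoter windows from RefSeq on build GRCm38.p6, with 250 bases before and 50 from the transcription start site, were on hand for 9066 of the 11252 genes tested. The E-box, a palindrome and so the same on both strands, was present in 12.1% of these windows, in 14.3% of 84 windows of genes called lower, in 10.8% of 37 windows of genes called higher and in 25% of 44 windows of the ribosome biogenesis list. It was present in 4 of the 8 windows of called members of this list. The 4 are shown because they are the called genes with the motif, in capitals, with up to 10 bases on each side on the gene's strand.
Mybbp1a, chr11:72441357-72441376, plus strand: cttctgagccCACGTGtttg
Nop2, chr6:125131813-125131838, plus strand: gtccctggatCACGTGtgttccggtg
Tsr1, chr11:74898094-74898119, plus strand: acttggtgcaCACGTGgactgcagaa
Utp20, chr10:88826765-88826787, minus strand: gcactaactaCACGTGaggaaaa
In Nop2 the motif lies before the start site, and in the other genes it lies after it. Each match describes letters in the window and is no evidence of binding.

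**Figure D2:**
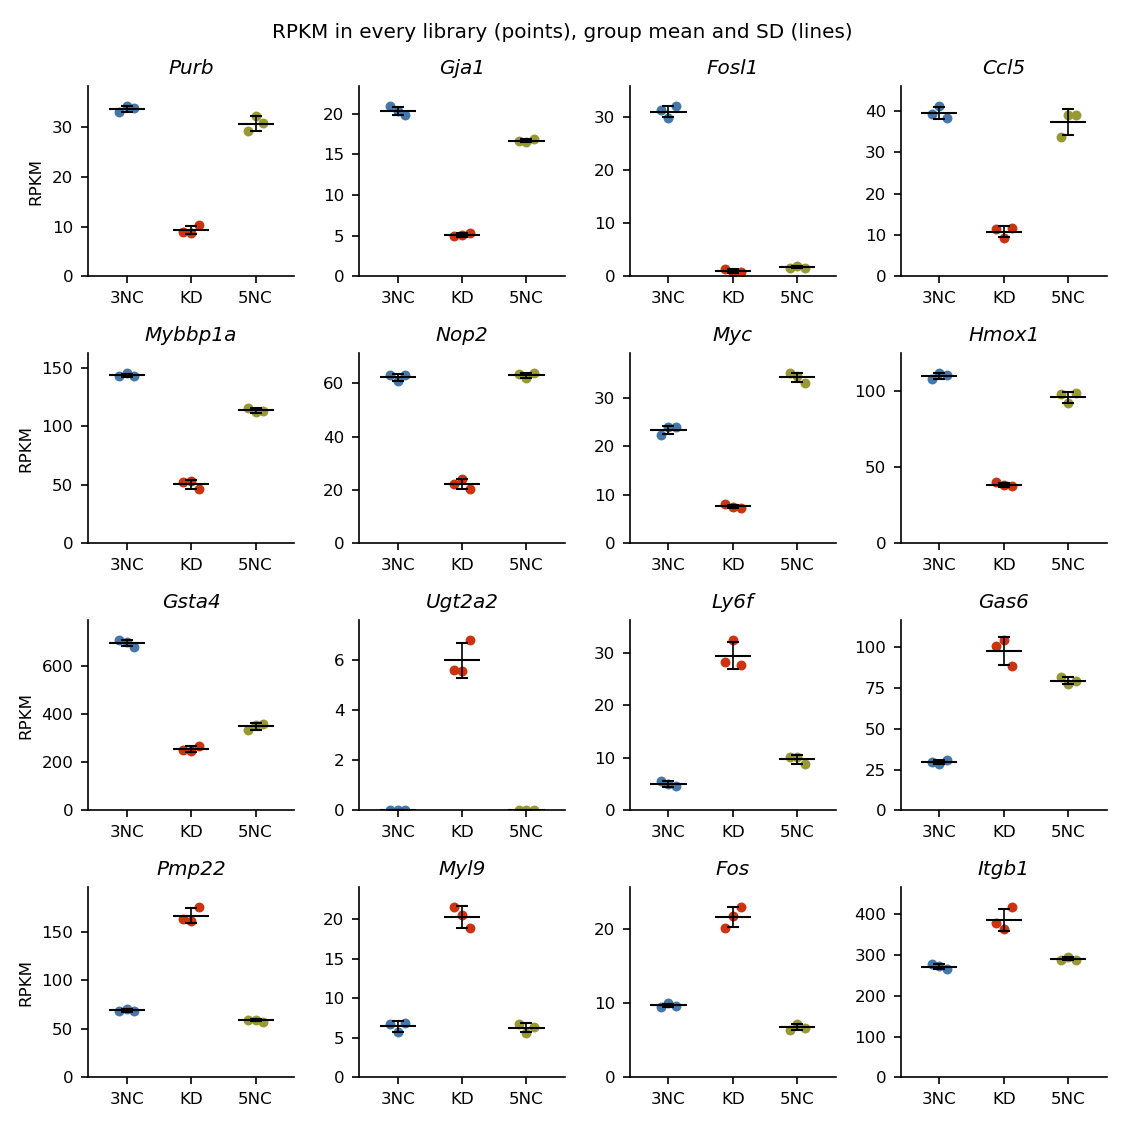
RPKM of 16 genes in each library of 3NC, KD and 5NC, 3 libraries per group, with the mean as a horizontal line and the SD as an error bar, on axes that start at 0. Purb, Mybbp1a and Nop2 are lowest in KD, Fosl1 is low in KD and in 5NC, and Pmp22 and Myl9 are highest in KD.

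Transcription factors of AP-1 and the ETS family relay growth factor signals to the genes in the nucleus. AP-1 is a dimer of FOS and JUN proteins. Fosl1 measured 31.2, 29.8 and 31.9 RPKM in 3NC and 1.45, 0.69 and 0.81 in KD. Fosl1, which encodes the FOS-related protein FRA1, had the largest fall of all genes called, with a log2 difference of -4.03 (SE 0.12, limma adjusted p = 7.91e-12). The 3 KD libraries lay between 0.69 and 1.45 RPKM. In 3NC, Fos was at 9.46, 9.97 and 9.58 RPKM, and in KD it was at 20.1, 21.6 and 22.9. Fos itself was higher, and its log2 difference was 1.08 (SE 0.06, limma adjusted p = 2.41e-09). Of the 8 AP-1 genes tested, 6 were lower and 1, Fos, higher, with a median of -0.40. Of 16 immediate early genes, 12 were lower and 0 higher (median -0.30), and 4 were called lower. Ier3, a stress-induced survival gene, fell from 251 to 85.7 RPKM, Egr1, a zinc finger factor, from 46.8 to 20, Maff, a small MAF protein, from 34.3 to 15, and Btg2, an antiproliferative gene, from 5.77 to 2.16. Among 12 ETS factors 5 were lower and 3 higher (median -0.01), and both genes called belong to the PEA3 group. Etv4 fell by 1.62 and Etv5, which spermatogonial stem cells use for self-renewal, by 1.4 on the log2 scale.

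The AP-1 site TGAGTCA was searched on both strands of the same promoter windows. It was present in 4.24% of the windows of genes tested, in 11.9% of those of genes called lower (10 of 84) and in 5.41% of those of genes called higher (2 of 37). The CRE TGACGTCA was present in 3.78%, 9.52% and 0% of them, and the antioxidant element core TGACNNNGC in 16.8%, 23.8% and 10.8%. A match to TGAGTCA overlapped a match to TGACNNNGC in 46 windows, 3 of them of genes called lower. Of the 10 genes called lower with TGAGTCA, 5 are shown as examples with the site in capitals and 10 bases on each side on the gene's strand. In Lif the letters are those of the reverse complement.
Sprr1a, chr3:92485981-92486007, minus strand: gggaggagggTGAGTCAtaggtgactg
Gja1, chr10:56377271-56377297, plus strand: tccttccagtTGAGTCAgtggcttgaa
Cd84, chr1:171839458-171839484, plus strand: cagtttctctTGAGTCAattttcttgt
Mmp10, chr9:7502269-7502295, plus strand: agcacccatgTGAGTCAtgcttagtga
Lif, chr11:4257330-4257356, plus strand: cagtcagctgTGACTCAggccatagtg
The other 5 were Hmga1b, Mt2, Srxn1, Tex19.1 and Wdr4, and Sprr1a, Srxn1 and Tex19.1 each hold another match in their windows. Sprr1a stood at 5.75, 4.78 and 4.11 RPKM in 3NC, and the KD libraries gave 0.1, 0.1 and 0.41. Sprr1a encodes a precursor of the cornified envelope, and Mmp10 a matrix metalloprotease. The level of Mmp10 was 4.58, 4.42 and 4.14 RPKM in 3NC, and 0.67, 0.64 and 0.62 in KD. Both were under 1 RPKM in every KD library and so were tested only through their 3NC level, with log2 differences of -2.29 (SE 0.12) and -1.71 (SE 0.08). Cd84, a receptor of the SLAM family, fell from 13.9 to 3.49 RPKM.

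Cells meet oxidants, heat, lack of oxygen and lack of amino acids with different transcription factors, whose targets partly overlap. Glutathione and iron genes were among those that fell. Of 42 tested NRF2 targets and glutathione genes, 22 were lower and 10 higher at an adjusted p up to 0.05, with a median of -0.32, and 7 were called lower. Gsta1 and Gsta4 encode glutathione S-transferases. Gsta4 was at 708, 701 and 683 RPKM in the 3NC libraries and at 253, 247 and 269.7 in the KD libraries. Gsta1 measured 63.5, 65 and 67.9 RPKM in 3NC and 12.3, 13.2 and 12 in KD. Their log2 differences were -1.44 (SE 0.06) and -2.3 (SE 0.08). Gm3776, a predicted gene and a neighbour of theirs in the RefSeq gene table, fell from 3.36 to 0.227 RPKM. It was under 1 RPKM in every KD library and so was tested only through its 3NC level. Reads of related transferase genes may have been divided between them. In 3NC, Hmox1 was at 108, 112 and 111 RPKM, and in KD it was at 40.2, 38.1 and 37.7. Hmox1, which encodes the heme-degrading enzyme heme oxygenase, had a log2 difference of -1.49 (SE 0.05), and Slc7a11, the cystine importer, -1.15 (SE 0.09). The other 3 called members, named after their values were seen, were Srxn1, Txnrd1 and Ugdh, at -1.02, -1.01 and -1.01. In the other direction Gstt1 was higher by 0.79 and Gstm6 by 0.78, neither of them called.

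Iron handling genes were lower in 10 of 14 and higher in 1 (median -0.37). Besides Hmox1, the transferrin receptor gene Tfrc fell from 43.5 to 17.5 RPKM, the metalloreductase gene Steap1 from 50.6 to 20.2, and Cp, the ferroxidase ceruloplasmin, from 12.2 to 4.5. Lcn2, a siderophore-binding protein named after its values were seen, was the fifth gene called (log2 difference -1.08). Of the ferritin genes, Fth1 fell by 0.14 and Ftl1, at -0.01, did not pass the test. Of 17 metallothioneins and zinc transporters 8 were lower and 2 higher (median -0.24), with Mt2 called. Mt2 stood at 52.1, 48.4 and 46.6 RPKM in 3NC, and the KD libraries gave 18.5, 22 and 19.8.

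Of 22 heat shock genes 17 were lower and 3 higher (median -0.41). The inducible HSP70 gene Hspa1b had a log2 difference of -1.02 (SE 0.07) and the HSP110 gene Hsph1 of -1.01 (SE 0.05). Both lay at the limit of the call: without 1 library the values were -0.98 (KD replicate 3) or -0.99 (3NC replicate 3) for Hspa1b and -0.99 (3NC replicate 2 or KD replicate 1) for Hsph1. Of 34 genes of the ATF4 and amino acid response 26 were lower and 4 higher (median -0.22), and Cebpb, a bZIP factor, and Slc7a11 were called. The level of Cebpb was 40.1, 38.1 and 45.3 RPKM in 3NC, and 19.7, 20.4 and 14.1 in KD. Of 20 hypoxia genes 13 were lower and 3 higher (median -0.34), led by Egln3, an oxygen-sensing prolyl hydroxylase, from 34 to 10.3 RPKM, and Ddit4, an inhibitor of mTORC1, from 20.6 to 9.13. Hk2, which starts glycolysis, was the 1 gene called among 24 glycolysis genes (log2 difference -1.32, 11 lower, 5 higher, median -0.12). Of 28 p53 targets 15 were lower and 4 higher (median -0.22). Cdkn1a was at 71.7, 69.7 and 71.7 RPKM in the 3NC libraries and at 26.2, 26.7 and 25.4 in the KD libraries. Cdkn1a encodes the cell cycle inhibitor p21, and its log2 difference was -1.41 (SE 0.06). Aen, a nuclease gene, and Plk2, a kinase gene, were called with log2 differences of -1.07 and -1.04. Apoptosis regulators (25 tested, 10 higher, 7 lower, median 0.00) included higher levels of the BH3-only genes Bcl2l11 (0.56) and Bmf (0.64).

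Genes of mitochondrial respiration were higher by small amounts. Of 74 nuclear genes of the respiratory chain and ATP synthase, 39 were higher, 2 lower and 33 neither, with a median of 0.16 and none called. Cox6c rose from 454 to 638 RPKM and Cox7a2 from 181 to 252, both subunits of cytochrome c oxidase. The 2 lower genes were Atp5g1 (-0.43) and Cycs (-0.13). Of 41 genes of autophagy and the lysosome 28 were higher and 3 lower (median 0.23). Sqstm1, the autophagy receptor p62, fell from 287 to 177. Fatty acid oxidation and lipid storage genes (22 tested) were higher in 11 and lower in 4 (median 0.16), and the 1 gene called, Fabp4, a fatty acid carrier, was lower (-1.37). Fatty acid synthesis genes (19 tested) were higher in 8 and lower in 4 (median 0.10), and the 1 called, Mid1ip1, was lower (-1, and -0.98 without 3NC replicate 1 or 3 and -0.96 without KD replicate 3, short of the call). Cholesterol genes (24 tested) were higher in 6 and lower in 6, with Hsd17b7 at -0.64.

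**Figure D3:**
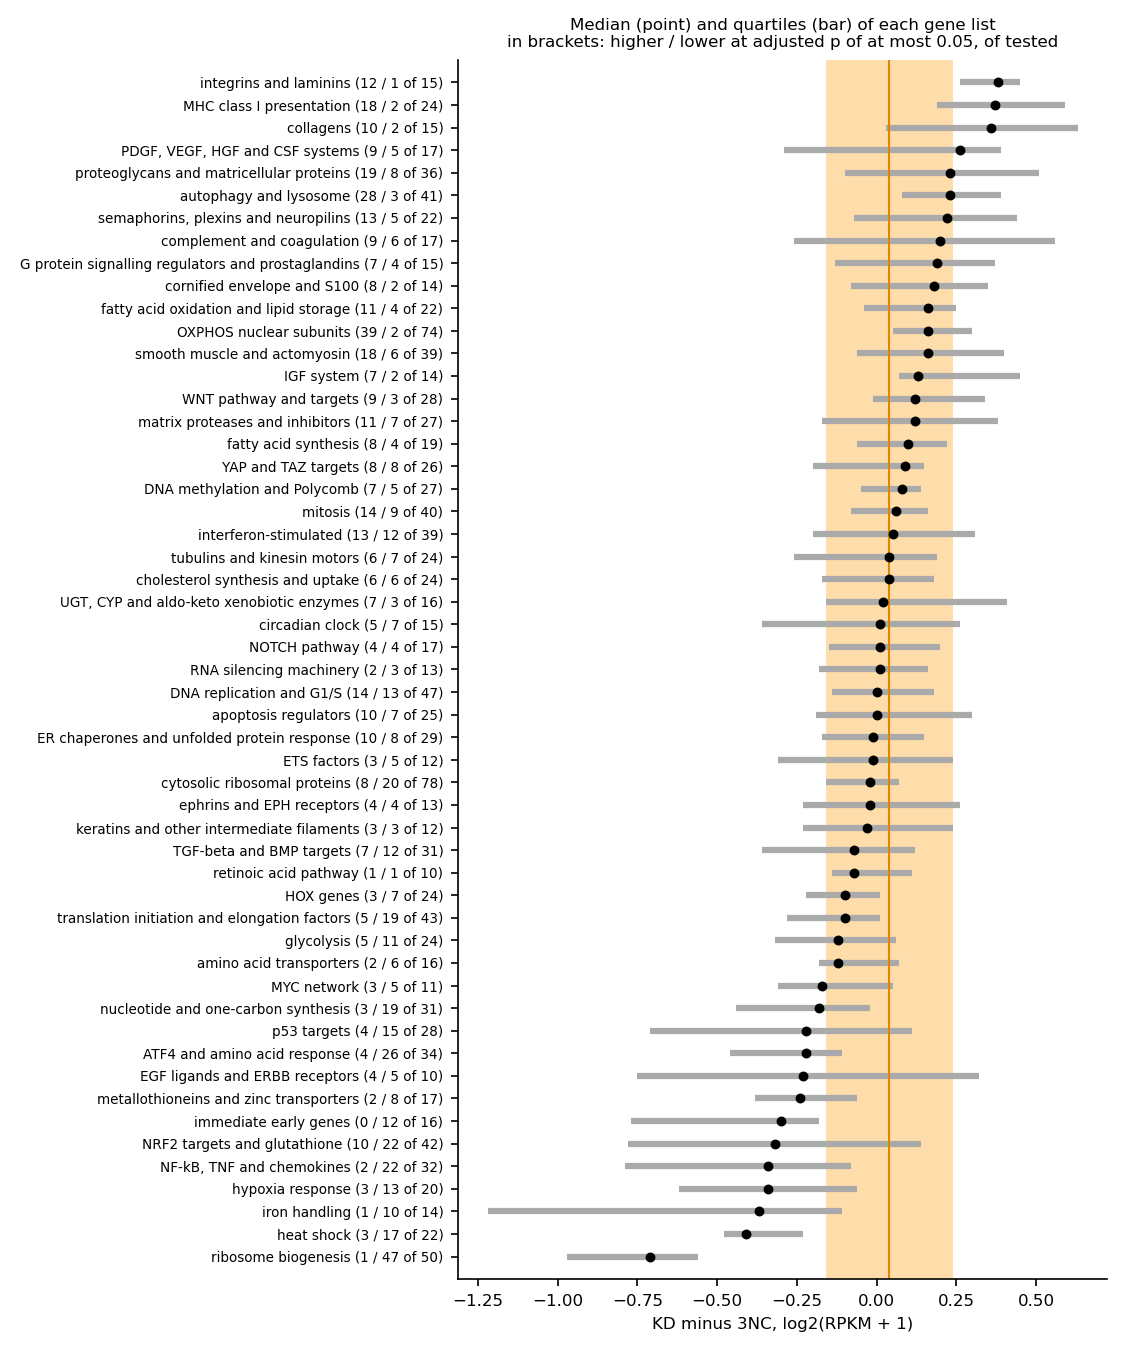
Median and quartiles of the difference between KD and 3NC, in log2(RPKM + 1), for each gene list with at least 10 genes tested, with the number higher and lower in brackets. Lists of cell type markers are left out. The orange line and band are the median of 0.04 and the quartiles of -0.16 and 0.24 over all genes tested. The ribosome biogenesis list, at -0.71, lies lowest, and integrins and laminins, at 0.38, lie highest.

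Inflammatory genes and antigen presentation genes moved in opposite directions. NF-kB drives chemokines and cytokines that recruit and activate immune cells. Of 32 NF-kB, TNF and chemokine genes, 22 were lower and 2 higher (median -0.34), and 6 were called lower. Ccl5 measured 39.2, 41.1 and 38.3 RPKM in 3NC and 11.4, 9.2 and 11.7 in KD. Ccl5, a chemokine for T cells and monocytes, had a log2 difference of -1.79 (SE 0.09). In 3NC, Cxcl1 was at 50.1, 50.7 and 51.5 RPKM, and in KD it was at 14.7, 13.3 and 15.8. Cxcl1, a neutrophil chemokine, had one of -1.73 (SE 0.06). Ccl7, a monocyte chemokine, fell from 14.8 to 5.37 RPKM and Lif, a cytokine of the IL-6 family, from 9.35 to 2.9. The other genes called, Lcn2 and the TWEAK receptor gene Tnfrsf12a (-1), were named after their values were seen. Cx3cl1 and Il33 were the members that were higher, by 0.6 and 0.37. Il18, a cytokine of the IL-1 family outside this list, was called higher. Il18 stood at 6.45, 6.39 and 6.22 RPKM in 3NC, and the KD libraries gave 19.7, 19.1 and 18.

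MHC class I molecules carry peptides cut by the immunoproteasome and pumped by TAP to the cell surface. Of 24 tested genes of this pathway 18 were higher and 2 lower (median 0.37), with none called. Psmb9, an immunoproteasome subunit, rose from 8.09 to 17 RPKM (log2 difference 0.99, SE 0.10, limma adjusted p = 7.11e-07). H2-Q6, at 0 in 1 library of 3NC, had a larger difference of 1.24 with a wide SE of 0.39, and its adjusted p of 0.0128 went to 0.0709 without 3NC replicate 3 and to 0.0668 without KD replicate 3. Over the alternatives tried its adjusted p ran from 0.00137 to 0.0709. H2 genes are close in sequence, so reads may have been divided between them. Psmb10, another subunit, was lower (-0.38). Interferon-stimulated genes went both ways, with 13 higher, 12 lower and a median of 0.05 over 39 tested. The 2 called, Oasl1 and Oasl2, are relatives of the OAS enzymes and were lower, with log2 differences of -1.44 and -1.22. Complement and coagulation genes (17 tested, 9 higher, 6 lower) included Serping1, the C1 inhibitor, called higher at 1.04 but at 0.96 without 3NC replicate 1 and just under 1 without KD replicate 2.

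Genes of the cell surface that hold cells to the matrix were higher. Integrins are receptors for matrix proteins, and laminins are matrix proteins of the basement membrane. Of 15 tested genes 12 were higher and 1, Itgb7, lower (median 0.38), with none called. Itgb1, the beta chain shared by most matrix receptors, was at 271 RPKM in 3NC and 386 in KD (log2 difference 0.51, SE 0.05), and Itgb3 at 3.79 and 8.19 (0.94, SE 0.07). Of 15 collagens 10 were higher and 2 lower (median 0.36). Col3a1, a fibrillar collagen, rose from 36 to 59.5 RPKM and Col5a3 from 6.49 to 11.4. The collagen list had medians of 0.45, 0.41 and 0.23 in the KD libraries relative to the 3NC mean, the lowest in KD replicate 3.

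Secreted matrix and protease genes changed most in single members. Spp1 encodes osteopontin, an integrin ligand. The level of Spp1 was 187, 185 and 172 RPKM in 3NC, and 62.5, 60.7 and 67.4 in KD. Its log2 difference was -1.5 (SE 0.05). Fn1, fibronectin, fell from 8.28 to 3.45 RPKM, and Ltbp1, which holds latent TGF-beta in the matrix, from 4.12 to 0.86. Ltbp1 was under 1 RPKM in every KD library and so was tested only through its 3NC level. Against these falls, Adamts5, an aggrecan-cutting protease, was higher. Adamts5 was at 4.92, 5.03 and 4.55 RPKM in the 3NC libraries and at 16.2, 16.3 and 18 in the KD libraries. Gpc4, a cell surface glypican, was called higher at 1.02 but not without KD replicate 3 (0.97) or 3NC replicate 3 (0.89). In all, 19 of 36 proteoglycans and matricellular proteins were higher and 8 lower (median 0.23), and 11 of 27 matrix proteases and inhibitors were higher and 7 lower (median 0.12).

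Contractile genes were higher at the light chain and smooth muscle actin. Myosin II contracts actin filaments and is switched by its regulatory light chains. Of 39 genes of smooth muscle and actomyosin 18 were higher and 6 lower (median 0.16). Myl9 measured 6.77, 5.67 and 6.93 RPKM in 3NC and 21.5, 20.5 and 18.8 in KD. Myl9, a regulatory light chain, had a log2 difference of 1.51 (SE 0.09, limma adjusted p = 3.34e-09). Acta2, smooth muscle actin, was also called higher, from 8.52 to 18.6 RPKM, at 1.04 and at 0.99 without KD replicate 2. Tuba1c, an alpha-tubulin, was the 1 gene called of 24 tubulins and kinesins and fell by 1.1 on the log2 scale.

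Of 5 tested TAM receptor and ligand genes 1 was called higher, and of 10 EGF ligands and ERBB receptors 2 were called lower. Of 9 FGF ligands and receptors 1 was called higher and 1 lower. Over all genes tested, 0.507% were called higher and 1.09% lower. Gas6 is the ligand of the TAM receptor kinases Tyro3, Axl and Mertk. In 3NC, Gas6 was at 29.8, 28.6 and 30.8 RPKM, and in KD it was at 101, 104 and 88.4. Its log2 difference was 1.68 (SE 0.06, limma adjusted p = 1.59e-11). Among its receptors Axl was at 82.4 RPKM in 3NC and 65.9 in KD, with a log2 difference of -0.32, while Tyro3, at 0.26, was higher. Fgf18 was called higher (1.01) and Fgf5 lower (-1.05), both at under 10 RPKM. Fgf5 was under 1 RPKM in every KD library and so was tested only through its 3NC level. The call of Fgf18 lay at the limit and was lost without 3NC replicate 1 (0.96), 3NC replicate 3 (0.99) or KD replicate 3 (0.91). Wnt7b, a WNT ligand, rose from 1.74 to 5.26 RPKM. The EGF receptor ligands Ereg and Areg fell from 5.4 to 1.73 RPKM and from 4.71 to 1.79, and Areg was short of the call without 3NC replicate 2 (-0.99) or KD replicate 1 (-0.98). Sema3c, a secreted guidance cue, fell from 20.3 to 7.22 RPKM in a list of 22 semaphorins, plexins and neuropilins of which 13 were higher and 5 lower (median 0.22).

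The other signalling lists held genes that passed at an adjusted p up to 0.05 but few called, namely 2 lower among TGF-beta and BMP targets, 1 higher in the WNT pathway and 0 in the others named here. Over all genes tested, 32.3% were higher and 23.7% lower at an adjusted p up to 0.05. The share higher was close to this in the WNT list (32.1%), in ephrins and EPH receptors (30.8%) and in ER chaperone genes (34.5%). In the IGF system 7 of 14 genes were higher and 2 lower (median 0.13), with Igf2bp3, an mRNA-binding protein of IGF2, at 0.78 and Igfbp4, which holds IGFs away from their receptor, at -0.86. Of 17 genes of the PDGF, VEGF, HGF and CSF systems 9 were higher and 5 lower (median 0.26), with the growth factor gene Pdgfb at 0.75 and Angptl4 at -0.94. Ephrins and EPH receptors, which sort cells by contact, were 4 higher and 4 lower of 13, with the receptor Epha4 at 0.98 and the ligand Efnb2 at -0.76. Of 31 TGF-beta and BMP targets 12 were lower and 7 higher (median -0.07), and of 28 genes of the WNT pathway 9 were higher and 3 lower (median 0.12). G protein regulators and prostaglandin genes were 7 higher and 4 lower of 15, with the adhesion receptor Adgrg1 at 0.62 and Prkar2b, a regulatory subunit of protein kinase A, at 0.65. Retinoic acid genes, which steer the entry of spermatogonia into differentiation, were 1 higher and 1 lower of 10, Dhrs9 at 0.64 and Crabp2 at -0.64. Crabp2 was under 1 RPKM in every KD library and so was tested only through its 3NC level. ER chaperone genes were 10 higher and 8 lower of 29, with the stress factor Xbp1 at -0.58 and Herpud1 at -0.72.

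Several of the largest rises were in genes that no list above holds or in small families. Ugt2a2, a UDP-glucuronosyltransferase, was listed at 0 in all 3 libraries of 3NC and at 5.63, 5.57 and 6.8 RPKM in KD. It was thus tested only through its KD level. In 5NC it was listed at 0, 0 and 0.03 RPKM. Its neighbour Ugt2a1, which shares exons with it, was listed at 0 in every library of these groups. Another UDP-glucuronosyltransferase gene, Ugt1a6a, was called lower (-1.38). Ly6f stood at 5.63, 4.99 and 4.56 RPKM in 3NC, and the KD libraries gave 28.2, 32.3 and 27.6. Ly6f encodes a GPI-anchored surface protein of the Ly6 family, and its log2 difference was 2.33 (SE 0.08, limma adjusted p = 1.39e-11). Cd177, of the same family, was called higher (1.06), but it was under 1 RPKM in every 3NC library and so was tested only through its KD level, while Plaur, the urokinase receptor, was lower (-0.96). Only 5 of the 26 listed Ly6 genes were tested. The level of Krt7 was 1.13, 0.55 and 0.63 RPKM in 3NC, and 4.6, 5.86 and 4.31 in KD. Krt7 is a keratin of simple epithelia, and 3 of 12 keratins and other intermediate filament genes were higher and 3 lower.

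Pmp22 was at 68, 70.8 and 68.4 RPKM in the 3NC libraries and at 163, 161 and 175 in the KD libraries. Pmp22 encodes a membrane protein of myelin that many cells express, and its log2 difference was 1.26 (SE 0.04, limma adjusted p = 1.27e-11). Fkbp1b measured 18.9, 19.8 and 22.2 RPKM in 3NC and 59.5, 59.3 and 60.7 in KD. Fkbp1b encodes an FK506-binding protein that stabilises calcium release channels. Rdm1, a RAD52 motif protein, rose from 24 to 62.3 RPKM, Tdrp, a testis development protein, from 11.5 to 30, Akap7, an anchor of protein kinase A, from 2.78 to 8.27, and Fam107a, an actin-associated protein, from 0.813 to 3.83. The predicted genes Gm16404 and Gm10058 were at most at 1.03 RPKM in the 3NC libraries and at 6.01 and 2.57 RPKM in KD. For all of these genes the KD libraries lay above the 3NC libraries, as the rule that picked the largest rises required. Fam107a and Gm10058 were under 1 RPKM in every 3NC library and so were tested only through their KD level. In 5NC, Fam107a was at 4.48 RPKM, and KD against 5NC did not pass the test (limma adjusted p = 0.0553).

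Among the largest falls outside the lists were a gap junction gene and a kinase. Gja1 encodes connexin 43, the channel protein of gap junctions. In 3NC, Gja1 was at 20.9, 20.3 and 19.8 RPKM, and in KD it was at 4.91, 5.06 and 5.29. Its log2 difference was -1.81 (SE 0.06, limma adjusted p = 7.91e-12). Prkg2 stood at 11, 8.75 and 9.42 RPKM in 3NC, and the KD libraries gave 1.71, 1.6 and 1.99. Prkg2 encodes a cGMP-dependent protein kinase. In 5NC it was at 1.49, 1.94 and 1.89 RPKM, as low as in KD, and KD against 5NC did not pass the test (limma adjusted p = 0.987). The remaining largest falls were in predicted genes, LOC105244034, Gm42102, Gm41844 and Gm40814. They fell from 25.1, 111, 104 and 90.7 to 4.25, 27.5, 30.2 and 28 RPKM. In 5NC these predicted genes were at 6.03, 36.5, 34.5 and 27.9 RPKM, near their KD levels. In all, 22 of the 123 genes called lower and 2 of the 57 called higher had a predicted or LOC name.

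The 5NC libraries were set beside the comparison as another control, and many of the genes called against 3NC were not called against 5NC. The contrasts share the KD libraries, so they are given side by side. Against 5NC, 144 genes were higher (1.28% of those tested) and 233 lower (2.07%) by the same rule, and at an adjusted p up to 0.05 the shares were 34.6% higher and 30.8% lower. Ribosome biogenesis had a median of -0.64 in KD against 5NC, with 46 of 50 genes lower and 2 higher. The 5NC libraries had list medians of -0.04 to 0.01 relative to 3NC, in the range of the 3NC libraries but for the lowest. Purb (29.2, 32.1 and 30.7 RPKM), Gja1 (16.7, 16.5 and 16.9), Ccl5 (33.6, 39.1 and 38.9), Hmox1 (98, 92.1 and 98.7), Mybbp1a (116, 112 and 113) and Nop2 (63.3, 61.8 and 63.7) were at levels in 5NC above every KD library. Myc was higher in 5NC (35, 34.4 and 33.1 RPKM) than in 3NC, and its log2 difference between KD and 5NC was -2.03.

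Other genes that fell against 3NC lay nearer to their KD level than to their 3NC level in 5NC. Fosl1 was at 1.61, 1.98 and 1.58 RPKM in 5NC, and its log2 difference between KD and 5NC was -0.47. Gsta1 was at 20.2, 17.1 and 20.8 RPKM in 5NC, Sprr1a at 0.21, 0.19 and 0.1, Egln3 at 9.86, 9.67 and 8.41 and Cdkn1a at 22.3, 19.9 and 20.9. The 5NC means of Egr1, Cd84 and Ltbp1 were 21.4, 3.77 and 0.667 RPKM. For these genes KD against 5NC did not pass the test (limma adjusted p = 0.105, 0.325 and 0.0916). For Etv4 the direction turned: it was at 3.4, 3.73 and 3.63 RPKM in 5NC, and KD was higher than 5NC by 1.19 on the log2 scale. Angptl4 (-0.94 against 3NC and 1.04 against 5NC), Areg (-1.03 and 0.79), Mmp10 (-1.71 and 0.41), Fabp4 (-1.37 and 0.36), Spp1 (-1.5 and 0.33), Cdkn1a (-1.41 and 0.30), Ereg (-1.23 and 0.24) and Hsd17b7 (-0.64 and 0.48) were also lower than 3NC and higher than 5NC. Col3a1 (0.71 and -0.97), Fgf18 (1.01 and -0.56), Adgrg1 (0.62 and -0.26), Acta2 (1.04 and -0.18) and Pdgfb (0.75 and -0.16) were higher than 3NC and lower than 5NC. Among the lists, glycolysis had a median of -0.12 against 3NC and 0.53 against 5NC (21 of 24 higher), EGF ligands and ERBB receptors -0.23 and 0.36, and FGF ligands and receptors 0.38 and -0.56. The NRF2 and glutathione list had a median of 0.14 against 5NC (21 higher, 12 lower) and the hypoxia list 0.39 (13 higher, 4 lower), where both had been below 0 against 3NC. The heat shock list had a median of -0.13, and the NF-kB, TNF and chemokine list had -0.20. Some lists with medians near 0 against 3NC were mostly higher in KD than in 5NC. Cholesterol genes had a median of 0.62 (19 of 24 higher, 2 lower) and mitosis genes of 0.34 (31 of 40 higher, 3 lower). Cytosolic ribosomal proteins had a median of 0.18 (43 of 78 higher, 9 lower).

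Among the rises, OXPHOS (median 0.26, 48 of 74 higher), MHC class I (0.33, 15 of 24 higher) and integrins and laminins (0.41, 11 of 15 higher) were above 0 against 5NC as well. Autophagy and lysosome (-0.11) and collagens (-0.06) were not. Pmp22 was at 59.4, 59.5 and 57.5 RPKM in 5NC, Fkbp1b at 17.4, 16.2 and 17.1, Myl9 at 6.75, 5.65 and 6.41, Fos at 6.36, 7.19 and 6.71 and Ly6f at 10.1, 10.2 and 8.73, each below every KD library. Gas6 was at 81.6, 77.5 and 79.5 RPKM in 5NC, Adamts5 at 16.7, 17.6 and 16.8 and Acta2 at 19.5, 21 and 23.1, much nearer to KD than to 3NC. KD and 5NC differ in the shRNA and in the vector, and these cannot be told apart in the contrast with 5NC.

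**Figure D4:**
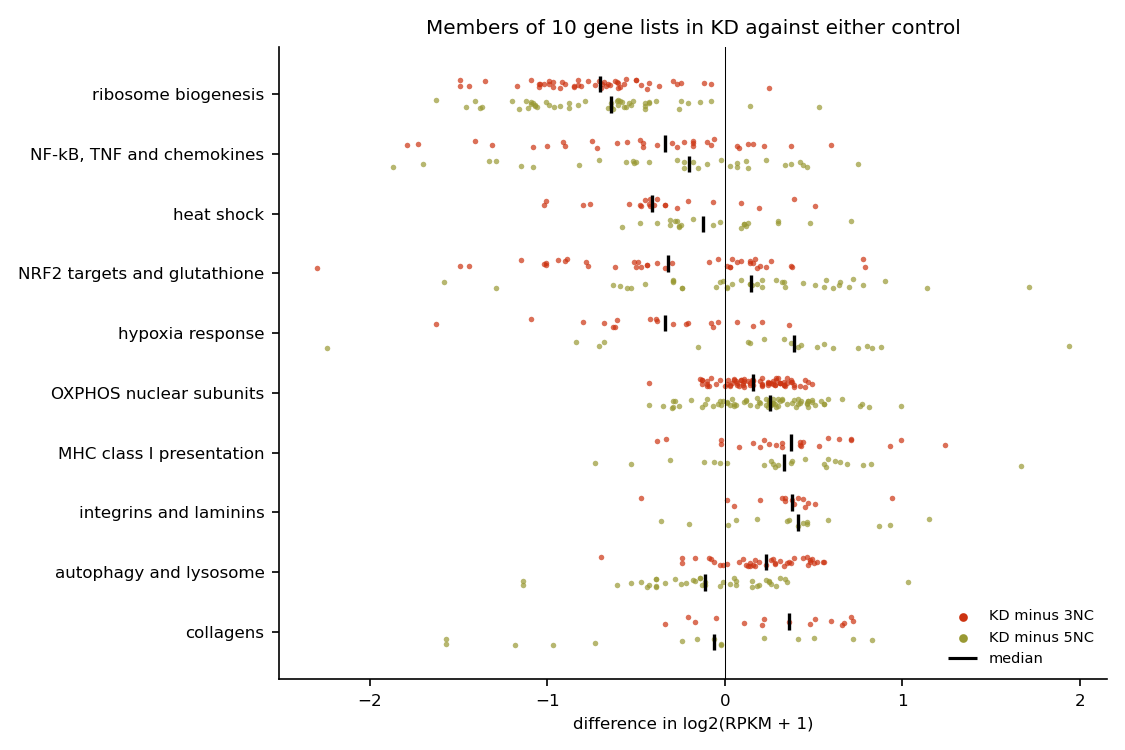
Members of 10 gene lists as points, with the difference in log2(RPKM + 1) between KD and 3NC in red and between KD and 5NC in olive, and the list median as a black line. Ribosome biogenesis lies below 0 with both controls (-0.71 and -0.64), while the hypoxia list lies at -0.34 with 3NC and at 0.39 with 5NC.

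The list medians of single libraries show how closely the replicates lay. For ribosome biogenesis, heat shock, iron handling, OXPHOS, lysosome and MHC class I genes, each KD library lay outside the range of the 3NC libraries. The same held for lists that moved little, such as translation factors (-0.11 to -0.10 in KD, -0.02 to 0.01 in 3NC). The 3NC medians lie near 0 because values are relative to the 3NC mean. For single genes, the KD and 3NC ranges did not overlap for 63.3% of all genes tested. KD replicate 3 had the lowest median of the KD libraries for NF-kB, TNF and chemokine genes (-0.43, beside -0.29 and -0.28), for MHC class I (0.27, beside 0.39 and 0.42) and for integrins and laminins (0.25, beside 0.39 and 0.42). Lists with medians close to 0 held genes that moved both ways, among them circadian clock genes (5 higher, 7 lower of 15, with Dbp at 0.96 and Bhlhe40 at -0.91), NOTCH genes (4 higher, 4 lower of 17) and YAP and TAZ targets (8 higher, 8 lower of 26, with Ctgf at -0.88 and F3 at -0.82). HOX genes (3 higher, 7 lower of 24, median -0.10) and DNA methylation and Polycomb genes (7 higher, 5 lower of 27, median 0.08, with Ezh1 at 0.78) had no gene called.

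**Figure D5:**
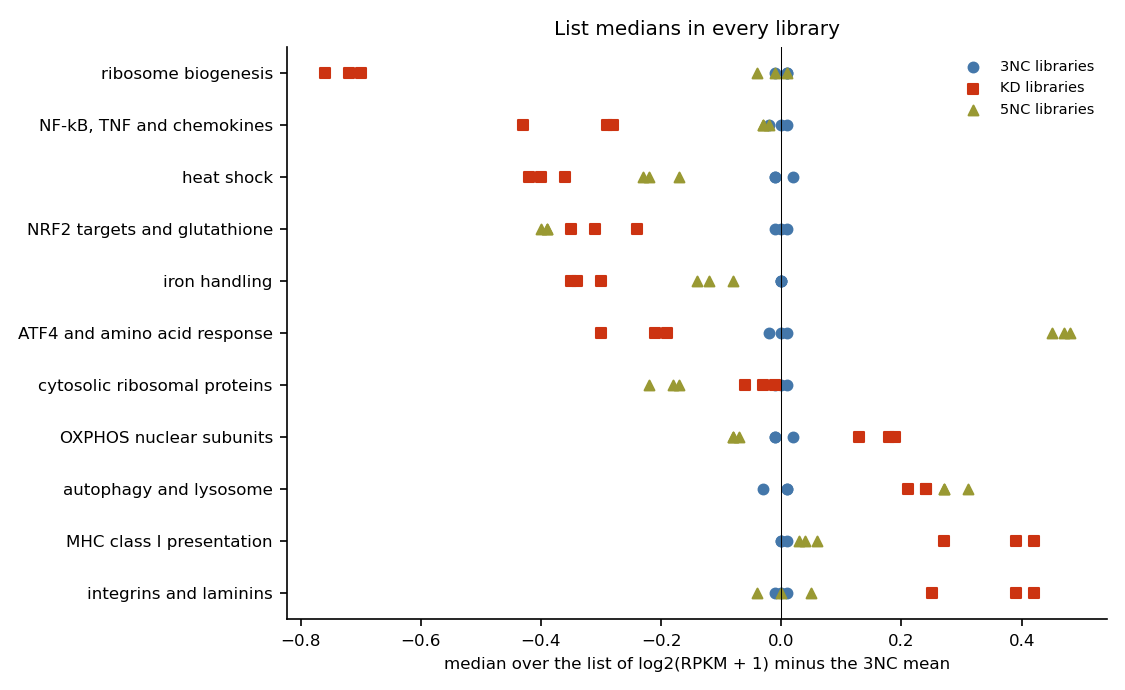
Median over the tested genes of each list of log2(RPKM + 1) minus the 3NC mean, for each library of 3NC (circles), KD (squares) and 5NC (triangles). The 3 KD libraries lie between -0.76 and -0.70 for ribosome biogenesis, where 5NC lies at -0.04 to 0.01, and the 5NC libraries lie at 0.45 to 0.48 for the ATF4 response, where KD lies at -0.30 to -0.19.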

How the data were processed

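RNA of C18-4 cells was measured in 3 libraries each of KD, 3NC and 5NC. The authors enriched mRNA, sequenced it on an Illumina instrument, mapped reads with SOAPaligner to reference genes and deposited RPKM values. The genome build and gene set are not given in the sources used here. RPKM keeps no read counts, so depth is unknown, but low genes gave the 6 libraries relative depths of 0.99 to 1.02. Bias by gene length or GC content and shared reads stay in RPKM.

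The deposited values of 11252 genes were taken to log2(RPKM + 1) and fitted with limma 3.58.1 in R 4.3.3, with 1 term per group over the groups of the series, eBayes with an intensity trend and Benjamini-Hochberg adjustment. Exact permutation of 3 against 3 libraries cannot go below p = 0.1. Figures were drawn with matplotlib 3.10.9.

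The 64 gene lists and the comparison were chosen with earlier results of these data known. Of 1925 listed symbols, 1848 were in the table. Named genes are the 15 largest rises and 15 largest falls among called genes whose libraries do not overlap, up to 4 called genes per list, up to 2 at an adjusted p of at most 0.05 in lists with none, and the Pur genes. There were 25 symbols that had become dates, and these were restored from their Entrez numbers. Replicate numbers did not pair the libraries. The OV libraries were used only in the shared estimate of spread. Alternatives were another pseudocount, no filter, quantile normalization, median centring, a fit to the 6 libraries, a replicate block, no intensity trend, each library left out, 5NC as the control and, added after seeing the data, a length and GC correction. Some genes that the rule for named genes takes are not reported here.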

Additional observations from a re-analysis of the deposited data

How the results depend on the processing

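With a pseudocount of 0.1, 161 genes were higher and 189 lower. With 5NC as the control, 144 were higher and 233 lower. Under the other alternatives the counts at both thresholds stayed within 1.5 times the reported ones. Leaving out 1 library at a time gave 58 to 63 genes higher and 116 to 126 lower, and 159 (without KD replicate 3) to 174 of the 180 called genes were called again. The length and GC correction gave 47 higher and 114 lower, 148 of them among the 180. It could be applied to 11098 genes, and 20 of the 180 had no length and GC value and dropped out. The fit with the replicate block gave 58 higher and 123 lower, and all 180 called genes were called again. The numbers do not pair the libraries: same-numbered deviations correlated at -0.04, -0.14 and -0.19. With 5NC as the control, genes and lists that differed in direction are given with examples in the text above and are not counted in what follows. Of 1858 values of named genes under the other alternatives, 25 fell short of their threshold and 0 turned direction. They concern Areg, Hspa1b, Hsph1, Mid1ip1, Fgf18, Gpc4, Serping1, Acta2 and H2-Q6. The cause was not tested. Of 896 list medians under these alternatives, 38 changed sign, all in lists with a median within 0.06 of 0. The largest move of a list median under them was 0.17. Without read counts, the precision of low genes is unknown.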
